A study of Mus musculus with 6 samples.

Results

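The data describe 9 genes for the synthesis and storage of triglyceride in 3T3-L1 adipocytes, chosen by name from their known roles: Gpam, Agpat2, Agpat3, Lpin1, Lpin2, Dgat1, Dgat2, Pck1 and Gpd1. All 9 had a row among the 45706 genes of the table, and all 9 passed the filter on low counts that left 11440 genes to test. 3T3-L1 is an established mouse fibroblast line that becomes adipocytes when treated with hormones. The 6 RNA samples came from cells carrying either a scrambled shRNA (scrambled control, 3 samples) or an shRNA against Rbms1, which encodes an RNA-binding protein (RBMS1 knockdown, 3 samples). Both groups were otherwise labelled wild type, were differentiated with insulin, dexamethasone, IBMX and rosiglitazone, and were collected on day 7. The knockdown line was made by lentiviral transduction and puromycin selection, and the labels name no second shRNA and no rescue. The study describes the 3 samples of a group as biological replicates, but the labels do not say whether they came from separate transductions. Any spread between them may therefore be partly technical. If a group came from a single transduction, this spread leaves out differences between lines, which could not be told apart from the knockdown.

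Adipocytes build triglyceride on glycerol 3-phosphate. A fatty acid is added by a glycerol-3-phosphate acyltransferase (Gpam encodes the mitochondrial form), a further one by an acylglycerol-phosphate acyltransferase (Agpat2, Agpat3), the phosphate is removed by a lipin (Lpin1, Lpin2), and the last fatty acid is attached by a diacylglycerol acyltransferase (Dgat1, Dgat2). The glycerol 3-phosphate comes from dihydroxyacetone phosphate through glycerol-3-phosphate dehydrogenase (Gpd1), and in glyceroneogenesis the carbon enters through cytosolic phosphoenolpyruvate carboxykinase (Pck1). Loss of AGPAT2 in people causes a congenital form of lipodystrophy.

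Total estimated counts ranged from 3142695 to 11073098 per sample. Levels are given as CPM, counts scaled to library size (as in edgeR) after correction by TMM factors (0.642 to 1.23), and a count of 0 allows a level of up to 0.220 to 1.49 CPM, the level of 3 counts. Such limits cover counting error only. Rbms1, the targeted gene, stood at 113, 102 and 99.6 CPM in the controls and at 49.2, 61.4 and 84.0 CPM in the knockdown samples. The log2 fold change was -0.69 (SE 0.20), with an adjusted p of 0.185 from edgeR's quasi-likelihood test, so that it was not called at the adjusted p of 0.1 used throughout. The groups did not overlap, and without RBMS1 knockdown replicate 3 the gene was called (log2 fold change -0.92, adjusted p = 0.0708).

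2 samples stood apart. In scrambled control replicate 2, genes derived from ribosomal RNA took 43.0% of the counts, against 8.12% to 17.8% in the others. The summed level of 7 preadipocyte and fibroblast markers was 3144 CPM in RBMS1 knockdown replicate 1, against 5776 to 6968 CPM in the other 5 samples. The summed level of 8 adipocyte markers was 10596 to 12046 CPM in the controls and 11295, 6450 and 8452 CPM in RBMS1 knockdown replicates 1, 2 and 3. All 8 had log2 fold changes below 0 (median -0.39) and none was called, while of the 6 fibroblast markers tested 5 were below 0 and none was called. Of all tested genes 49.6% were below 0 and 1.22% were called. The brown adipocyte gene Ucp1 and the macrophage genes Ptprc and Adgre1 had no count in any sample, and the endothelial gene Pecam1 did not exceed 1.99 CPM. In such bulk samples fewer cells of a type and less RNA per cell cannot be told apart.

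The upstream sequences of 3 genes are shown, because Agpat2 and Lpin2 were members whose groups did not overlap and Pck1 had the largest fold change. Promoter sequences from RefSeq (GRCm38.p6) were matched for 6 of the 9 genes, those of Dgat1, Dgat2 and Gpd1 were not analysed here, and 250 bases before the start site are printed, 5′ to 3′ on the gene's strand. Capitals mark exact matches to motifs searched on both strands.
Pck1, chr2:173152823-173153072, plus strand: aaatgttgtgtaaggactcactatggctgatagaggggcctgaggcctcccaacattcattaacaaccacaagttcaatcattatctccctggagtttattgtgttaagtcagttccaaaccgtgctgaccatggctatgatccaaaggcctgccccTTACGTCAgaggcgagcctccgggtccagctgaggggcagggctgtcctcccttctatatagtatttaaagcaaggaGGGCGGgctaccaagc
Agpat2, chr2:26604418-26604667, minus strand: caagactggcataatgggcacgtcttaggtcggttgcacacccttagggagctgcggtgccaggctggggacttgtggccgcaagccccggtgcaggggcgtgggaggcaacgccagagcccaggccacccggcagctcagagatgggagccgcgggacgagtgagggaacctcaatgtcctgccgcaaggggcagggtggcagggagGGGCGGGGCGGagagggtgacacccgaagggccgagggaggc
Lpin2, chr17:71183282-71183531, plus strand, first of 3 start sites: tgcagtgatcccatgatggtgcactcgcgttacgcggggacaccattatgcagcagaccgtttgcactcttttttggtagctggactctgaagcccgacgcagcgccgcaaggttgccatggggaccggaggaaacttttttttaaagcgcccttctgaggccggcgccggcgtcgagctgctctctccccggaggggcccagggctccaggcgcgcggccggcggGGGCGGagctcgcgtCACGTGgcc

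The Pck1 window held TTACGTCA, a variant of the cAMP response element, 93 bases before the start site. This octamer was present in 0.447% of 32851 RefSeq windows of the same length, and the full element TGACGTCA in 1.55%. A GC box (GGGCGG) lay 16 bases before the Pck1 start site, and the Agpat2 window held a pair of overlapping GC boxes starting 42 and 37 bases before its own. GC boxes were common, in 32.7% of all windows. The Lpin2 window held a GC box 24 bases and an E-box (CACGTG, in 6.02% of windows) 9 bases before the start site. The other motifs searched were AGGTCA (14.0% of windows), CCAAT (33.8%), TATAAA (12.4%) and TTGCNNAA (9.56%), and none of them matched in the 3 windows shown. Of the windows not shown, that of Lpin1 held AGGTCA 74 bases and that of Agpat3 held TTGCNNAA 149 bases before the start site. The first Gpam start site had CCAAT 74 bases upstream, and the second had AGGTCA 196 bases and a GC box 16 bases upstream. The second Lpin2 start site had a GC box 79 bases upstream, and the third had TTGCNNAA 70 bases upstream and 3 CCAAT matches between 233 and 57 bases upstream. The start sites are RefSeq's and can differ from the gene bounds given below from another annotation. As placed there, the whole Lpin2 window shown and the last bases of the Pck1 window, with its GC box, lie inside the gene, as do the windows of Agpat3, of the second Gpam start site and of the other Lpin2 start sites. A match describes letters in a window and not a bound site.

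None of the 9 genes was called between RBMS1 knockdown and scrambled control, where 1.22% of all tested genes were called (140 of 11440, 36 higher and 104 lower). Of the 9, 5 had a log2 fold change below 0 and 4 above, with a median of -0.32 against 0.0044 over all tested genes. This median is the value of Lpin1 and rested on single samples, being -0.66, -0.19 and -0.02 without RBMS1 knockdown replicates 1, 2 and 3. With library size alone, which moved the median of all genes to 0.37, it was 0.053. The groups did not overlap for 4 genes. Agpat2, Dgat1 and Gpd1 were lower in every knockdown sample than in every control, a pattern of 9.55% of tested genes, and Lpin2 was higher, a pattern of 8.96%. The same 4 genes had an unadjusted p under 0.05, as did 12.4% of all tested genes.

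**Figure D1:**
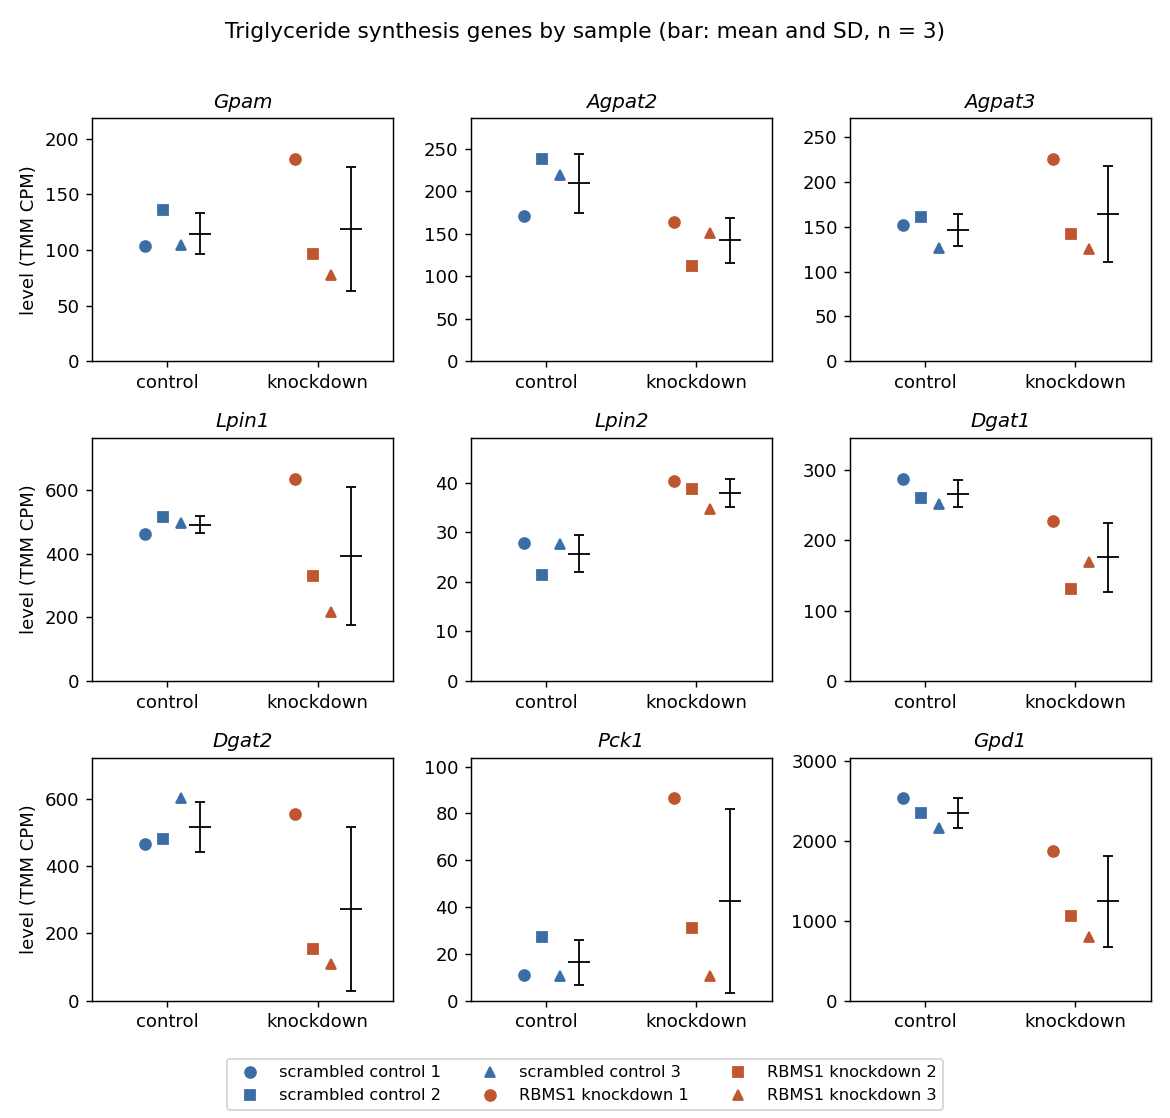
TMM-normalized CPM (linear axes from 0, scale differing by gene) of the 9 genes in the 3 scrambled control (blue) and 3 RBMS1 knockdown samples (orange), the marker shape giving the replicate number and the bar the mean and SD of 3 samples. RBMS1 knockdown replicate 1 (orange circle) is the highest knockdown sample in all 9 panels, and only Agpat2, Lpin2, Dgat1 and Gpd1 separate the groups.

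Of Gpd1 and Pck1, the members that supply glycerol 3-phosphate, Gpd1 was the more abundant. Its position is chromosome 15, 99717515 to 99725005 (GRCm38, as for all genes here). It was measured at 2539, 2352 and 2160 CPM in scrambled control replicates 1, 2 and 3, and 1882, 1062 and 793 CPM in RBMS1 knockdown replicates 1, 2 and 3. The means were 2350 ± 189 and 1246 ± 568 CPM (SD, n = 3), and every knockdown sample lay below every control. The log2 fold change was -0.92 (SE 0.32, 95% interval -1.63 to -0.20), with an adjusted p of 0.270 from edgeR. DESeq2 gave an adjusted p of 0.0468 at a log2 fold change of -0.90, which made Gpd1 the only one of the 9 genes it called, beside 3.20% of the 13454 genes to which it gave an adjusted p.

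Pck1 (chromosome 2, 173153048 to 173159273) was among the least abundant and had the largest fold change. It stood at 11.1, 27.3 and 10.7 CPM in the controls and at 86.5, 30.9 and 10.6 CPM in the knockdown samples. The first of these was far above the rest, replicate 2 was close to scrambled control replicate 2, and replicate 3 was level with the other controls, so the groups overlapped. Its log2 fold change was 1.42 (SE 0.66, interval -0.06 to 2.90, adjusted p = 0.418). Without RBMS1 knockdown replicate 1 it was 0.38.

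Gpam, whose enzyme adds the first fatty acid, lies on chromosome 19 (55067268 to 55127238). Its controls read 104, 136 and 104 CPM and its knockdown samples 182, 96.8 and 77.9 CPM. The knockdown samples lay on both sides of the controls. The log2 fold change of 0.05 (SE 0.29, interval -0.60 to 0.70, adjusted p = 0.962) changed sign under 6 of 17 alternatives and was called under none, so no direction is given.

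The acylglycerol-phosphate acyltransferases, which add the following fatty acid, did not show the same values. Agpat2 (chromosome 2, 26593057 to 26604417) had 170, 238 and 219 CPM in the controls and 163, 112 and 151 CPM in the knockdown samples. The highest knockdown sample lay just below the lowest control. This gave a log2 fold change of -0.56 (SE 0.19, interval -0.99 to -0.13, adjusted p = 0.270). Agpat3 (chromosome 10, 78269178 to 78352489) read 152, 160 and 126 CPM in the controls and 225, 141 and 125 CPM in the knockdown samples. Only RBMS1 knockdown replicate 1 lay outside the range of the controls by more than 1 CPM. Its log2 fold change was 0.17 (SE 0.22, interval -0.34 to 0.68, adjusted p = 0.813), and -0.12 without that sample.

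Of the lipins, which remove the phosphate from phosphatidate, Lpin1 was the more abundant, and among the knockdown samples Lpin2 was the more even. Lpin1 (chromosome 12, 16535669 to 16610966) had 461, 516 and 498 CPM in the controls and 637, 330 and 217 CPM in the knockdown samples. Of the knockdown samples, replicate 1 lay above all controls and the other two below them. This gave a log2 fold change of -0.32 (SE 0.33, interval -1.06 to 0.42, adjusted p = 0.751). Lpin2 (chromosome 17, 71182560 to 71249817) had 27.9, 21.3 and 27.7 CPM in the controls and 40.3, 38.8 and 34.6 CPM in the knockdown samples, or 25.6 ± 3.73 against 37.9 ± 2.91 CPM (SD, n = 3). All 3 knockdown samples lay above all 3 controls. The log2 fold change was 0.56 (SE 0.18, interval 0.16 to 0.95, adjusted p = 0.223), and it was 0.44 to 0.62 with any 1 sample left out.

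The diacylglycerol acyltransferases complete the triglyceride. Dgat1 (chromosome 15, 76502015 to 76511953) had 288, 260 and 252 CPM in the controls and 228, 130 and 170 CPM in the knockdown samples, which all lay below the controls. Its log2 fold change was -0.60 (SE 0.20, interval -1.06 to -0.14, adjusted p = 0.267). Dgat2 (chromosome 7, 99153658 to 99182719), an enzyme of a separate protein family with the same reaction, had 466, 483 and 603 CPM in the controls. Its knockdown samples read 555, 155 and 110 CPM. Replicate 1 lay within the range of the controls, while the other two were below all of them. With this spread the log2 fold change was -0.92 (SE 0.50, interval -2.05 to 0.21, adjusted p = 0.498).

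RBMS1 knockdown replicate 1 was the highest of the knockdown samples for all 9 genes, as it was for 37.3% of all tested genes. It lay above all controls for 5 of them, Gpam, Agpat3, Lpin1, Lpin2 and Pck1, as for 29.0% of all tested genes. The other 2 knockdown samples were both below all controls for 6 genes, Gpam, Agpat2, Lpin1, Dgat1, Dgat2 and Gpd1, as for 17.6% of all tested genes. The adipocyte markers were split in the same manner, replicate 1 being the highest knockdown sample for 8 of 8 and the others being below all controls for 6 of 8. The summed level of the 9 genes was 4219, 4194 and 4000 CPM in the controls and 3999, 2097 and 1688 CPM in the knockdown samples. Rbms1 was itself lowest in replicate 1, at 49.2 CPM.

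The spread within the knockdown group was wide for several of the genes. The highest knockdown sample exceeded the lowest 8.13-fold for Pck1, 5.05-fold for Dgat2, 2.94-fold for Lpin1, 2.37-fold for Gpd1 and 2.33-fold for Gpam, against a median of 1.42-fold over 11251 genes counted in every sample. Only 0.951% of those genes had a wider spread than Pck1 and 2.45% a wider one than Dgat2. For Lpin2 the ratio was 1.16. In the controls the ratio was 1.12 to 1.40 for 8 of the 9 genes and 2.56 for Pck1, where the median gene had 1.38.

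Without RBMS1 knockdown replicate 1, 4 of the 9 genes were called lower in edgeR, beside 5.94% of all tested genes (696 of 11724). They were Dgat2 (log2 fold change -1.96, adjusted p = 0.00241), Gpd1 (-1.33, adjusted p = 0.0138), Dgat1 (-0.82, adjusted p = 0.0320) and Lpin1 (-0.84, adjusted p = 0.0474). Gpam was at -0.38 (adjusted p = 0.307). With any other sample left out instead, none of the 9 was called. As RBMS1 knockdown replicate 1 was the highest knockdown sample for all 9 genes, leaving it out lowered every fold change. These 4 calls therefore give no independent support for lower levels. The fibroblast marker level of that replicate is given above, and its part in these differences was not tested.

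**Figure D2:**
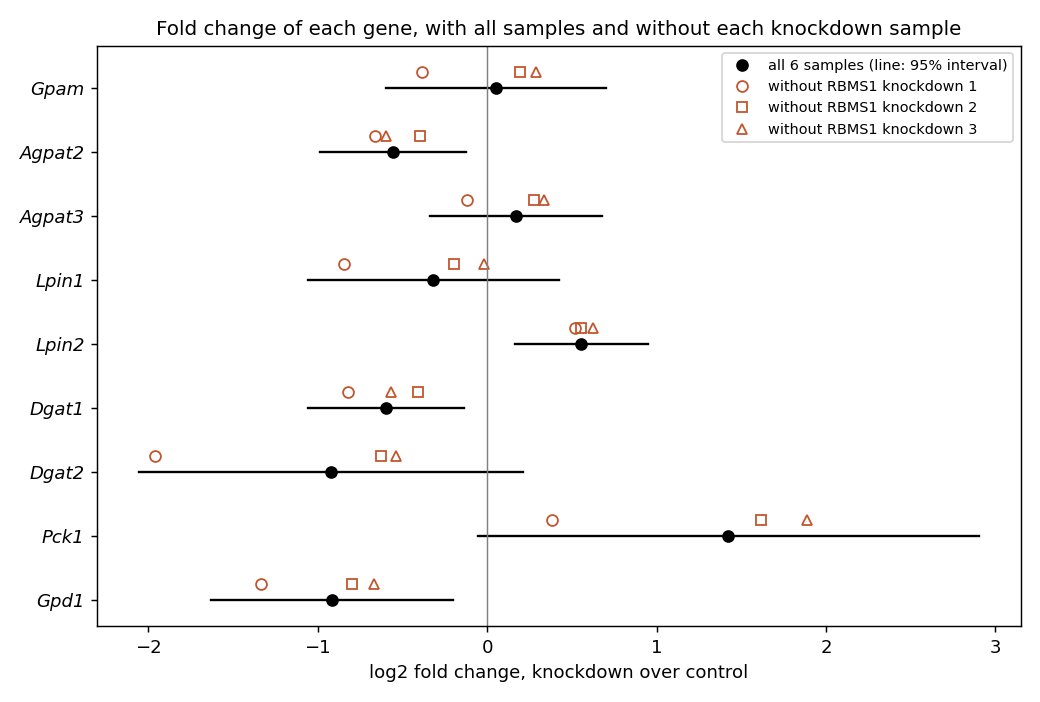
Log2 fold change of RBMS1 knockdown over scrambled control for the 9 genes, with all 6 samples (black, line: 95% interval from edgeR) and with each knockdown sample left out (open orange markers). Leaving out replicate 1 moves Dgat2 from -0.92 to -1.96 and Pck1 from 1.42 to 0.38, while Lpin2 stays between 0.52 and 0.62 with any knockdown sample left out.

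Levels of different genes were compared per length, as RPKM, the CPM divided by the exon length of the annotation in kilobases. In the controls Gpd1 was at 794 ± 64.0 RPKM (SD, n = 3), followed by Dgat2 at 168 ± 24.2, Agpat2 at 98.1 ± 16.3, Dgat1 at 87.2 ± 6.17 and Lpin1 at 50.9 ± 2.89 RPKM. Agpat3 (18.7 ± 2.31), Gpam (17.2 ± 2.77), Pck1 (4.77 ± 2.77) and Lpin2 (2.10 ± 0.305 RPKM) followed. Agpat2 and Dgat1 overlapped between samples, as did Agpat3 and Gpam, while all other neighbours in this order were separate. The means had the same order in the knockdown samples, from Gpd1 at 421 ± 192 to Lpin2 at 3.10 ± 0.238 RPKM, but there only Gpd1 and Dgat2 did not overlap with each other. Dgat2 was at 88.6 ± 79.4, Lpin1 at 40.8 ± 22.5 and Pck1 at 12.4 ± 11.5 RPKM. Gpd1 made up 55.1% to 67.5% of the summed RPKM of the 9 genes in each sample.

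Pairs of genes for the same step or the same precursor were also compared as a log2 ratio of counts within a sample, which needs no scaling between libraries. The ratio of Lpin1 to Lpin2 was 4.04, 4.58 and 4.17 in the controls and 3.98, 3.08 and 2.64 in the knockdown samples. It was lower in every knockdown sample, with a mean difference of -1.03. The ratio of Pck1 to Gpd1 was -7.83, -6.42 and -7.65 in the controls and -4.44, -5.10 and -6.21 in the knockdown samples, 2.05 higher on average, with no overlap. Each had an exact permutation p of 0.1 (two-sided), the smallest that 3 samples against 3 allow, and 0.2 after adjustment over the 4 ratios computed. This permutation test therefore cannot reach 0.05.

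The ratio of Dgat2 to Dgat1 overlapped between the groups (0.95 ± 0.29 against 0.30 ± 0.96, SD, n = 3, exact permutation p = 0.4). The difference of -0.65 was -1.14 without RBMS1 knockdown replicate 1 and -0.18 without replicate 3. It was 1.28 in RBMS1 knockdown replicate 1, the highest of the 6, and 0.25 and -0.63 in the other two, which lay below all controls. The ratio of Agpat2 to Agpat3 was 0.51 ± 0.32 in the controls and -0.18 ± 0.39 in the knockdown samples (SD, n = 3, exact permutation p = 0.2, adjusted p = 0.267). Agpat3 had the larger count in 2 of the 3 knockdown samples and Agpat2 in every control.

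**Figure D3:**
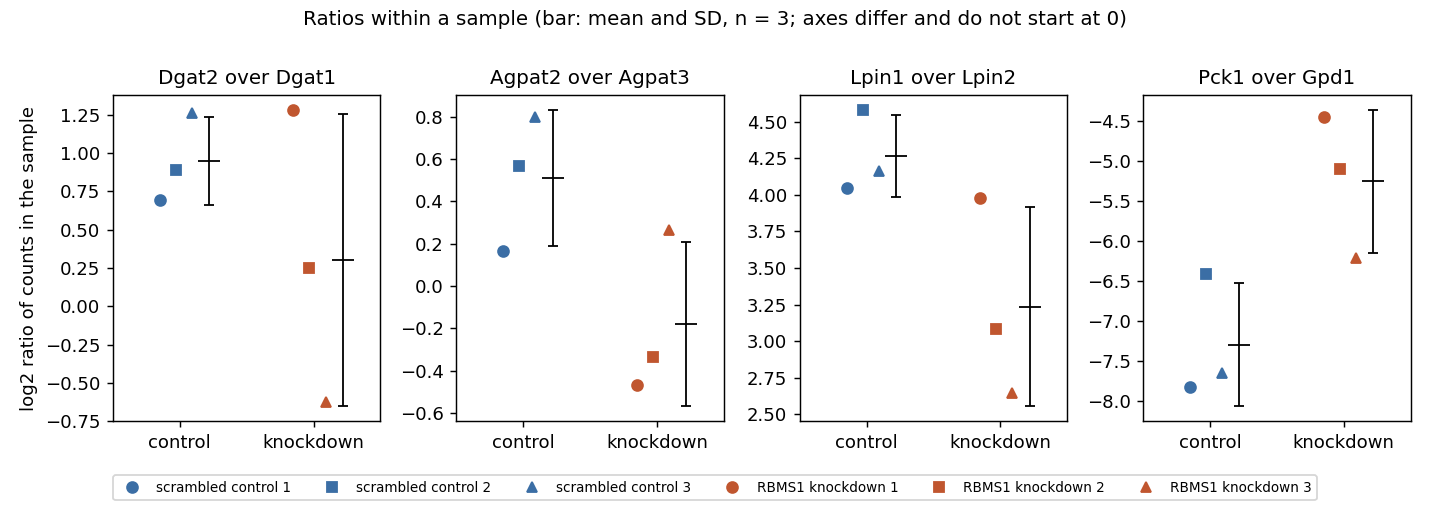
Log2 ratio of the counts of 2 genes in the same sample (axes differ and do not start at 0), for 3 scrambled control (blue) and 3 RBMS1 knockdown samples (orange), the marker shape giving the replicate number and the bar the mean and SD. The groups separate for Lpin1 over Lpin2 and for Pck1 over Gpd1 and overlap for the other pairs.

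The 9 genes were next set against the mean log2 CPM of the 8 adipocyte markers in the same sample, which was 10.08 ± 0.025 in the controls and 9.66 ± 0.47 in the knockdown samples (SD, n = 3, exact permutation p = 0.4). On this relative log2 scale Lpin2 was 0.99 higher and Agpat3 0.55 higher in the knockdown samples, with no overlap of the groups. Gpd1 differed by -0.58 and Dgat1 by -0.21, both lower in every knockdown sample than in every control. Each of these 4 had an exact permutation p of 0.1, the smallest possible, and an adjusted p of 0.225 over the 9 genes. For Dgat1 the gap was small, from -2.14 in RBMS1 knockdown replicate 3 to -2.09 in scrambled control replicate 3. With Adipoq left out of the markers its difference was -0.19, the exact permutation p was 0.2, and the groups overlapped. The other 5 genes overlapped. The share of all tested genes without overlap on this relative scale was not computed, so whether 4 of 9 is unusual cannot be said. Pck1 differed by 1.45 and Dgat2 by -0.85, Gpam by 0.39, Agpat2 by -0.14 and Lpin1 by -0.04. Without RBMS1 knockdown replicate 3, Dgat2 differed by -0.44, Gpd1 by -0.36 and Gpam by 0.59, and without replicate 1 Dgat2 differed by -1.29. The values of Agpat2 and Lpin1 had no stable sign, being 0.014 for Agpat2 without RBMS1 knockdown replicate 1 and 0.27 for Lpin1 without replicate 3.

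The wider pathway was described with 45 further genes, of which 39 were tested. Of these, 24 (61.5%) had log2 fold changes below 0 and 15 above, beside 49.6% of all tested genes below 0. The median was -0.077, but 0.32 with library size alone and 0.042 without RBMS1 knockdown replicate 2. The groups did not overlap for 9 genes lower and 2 genes higher in the knockdown samples, beside 9.55% and 8.96% of all tested genes. An unadjusted p under 0.05 was found for 10 of the 39, beside 12.4% of all tested genes. RBMS1 knockdown replicate 1 was the highest knockdown sample for 26 of the 39 (66.7%), beside 37.3% of all tested genes. Acsl6, Gpat2, Dgat2l6 and Cds1 had no count in any sample, and Mogat1 and Mogat2 were too low to test.

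Plpp1, which encodes a phospholipid phosphatase able to dephosphorylate phosphatidate, was the only one called of the 39, beside 1.22% of all tested genes. It fell from 47.9, 48.6 and 51.6 CPM in the controls to 24.0, 28.2 and 24.1 CPM in the knockdown samples. Here the 3 knockdown samples lay close together. Its log2 fold change was -0.96 (SE 0.16, 95% interval -1.31 to -0.61, adjusted p = 0.0404 in edgeR), and it was -1.02 to -0.91 with any sample left out. The call itself was lost on leaving out scrambled control replicate 1 (adjusted p = 0.132), 2 (0.152) or 3 (0.195) or RBMS1 knockdown replicate 2 (0.117). It was also lost with library size alone (log2 fold change -0.59, adjusted p = 0.318). Plpp2, of the same family, was at 1.10 (adjusted p = 0.255) from counts of 4 to 126 per sample, with every knockdown sample above every control.

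For the activation of fatty acids, the log2 fold changes of the acyl-CoA synthetases ran from -0.83 for Acsl1, the main adipocyte form, to 0.39 for Acsl4. Acsl1 was at 3877, 3876 and 4006 CPM in the controls and 3249, 1619 and 1728 CPM in the knockdown samples (adjusted p = 0.324). Its groups did not overlap. Among further genes of glycerol 3-phosphate metabolism, Gk, whose glycerol kinase makes it from glycerol, was at -0.54, and Gpd2, whose mitochondrial dehydrogenase oxidises it, at -0.01. In glyceroneogenesis Mdh1, the cytosolic malate dehydrogenase, was at -0.27 and Pck2, the mitochondrial counterpart of Pck1, at 0.29.

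The microsomal acyltransferases Gpat4 and Gpat3 were at -0.55 (adjusted p = 0.202) and 0.28. Among further acylglycerol-phosphate acyltransferases the range was -0.30 for Agpat5 to 0.25 for Agpat4. Acsl1, Gpat4 and Agpat5 lie on chromosome 8, where the log2 fold changes of 624 tested genes had a median of -0.38. With the median of each chromosome removed in each sample they were at -0.44, -0.15 and 0.10. In the acylglycerol acyltransferase group only Tmem68 was tested, at 0.07. In the phospholipid branch Chpt1, a cholinephosphotransferase that uses the same diacylglycerol as Dgat1 and Dgat2, was at -0.88 (adjusted p = 0.204), with no overlap of the groups, and Cds2 was at 0.25.

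Of 9 transcription regulators of these genes none was called, 7 were below 0 and the median was -0.34. Of all tested genes 1.22% were called and 49.6% were below 0, with a median of 0.0044. For 3 of the 9 every knockdown sample was lower than every control, a pattern of 9.55% of tested genes. Mlxipl, which encodes the carbohydrate-response factor ChREBP, was lowest at -1.10 (adjusted p = 0.283), with 38.1, 47.1 and 27.2 CPM in the controls and 21.0, 24.0 and 7.49 CPM in the knockdown samples. Rxra was highest at 0.07. Without RBMS1 knockdown replicate 1, 6 of the 39 genes were called lower, namely Chpt1 (-1.28), Acsl1 (-1.22), Ppargc1a (-1.18), Plpp1 (-0.91), Srebf1 (-0.86) and Cebpa (-0.83), again beside 5.94% of all tested genes.

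**Figure D4:**
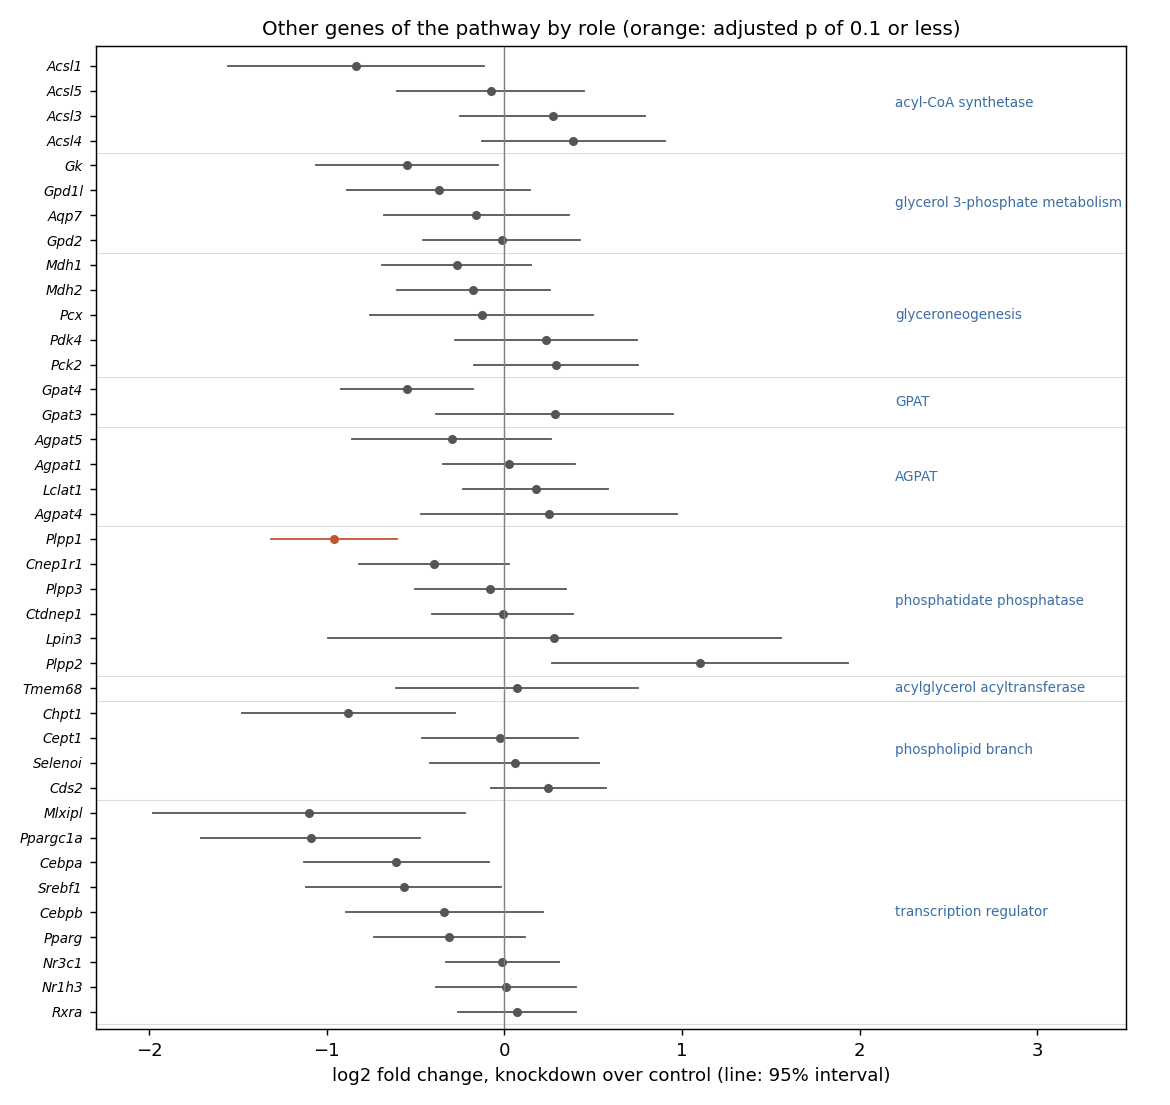
Log2 fold change of RBMS1 knockdown over scrambled control (point) with its 95% interval from edgeR (line) for the 39 tested genes of the wider pathway, grouped by role. Plpp1 (orange, -0.96) is the only one called, and most intervals include 0.

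The profile of Pck1 over the 6 samples was nearest to those of Rasl12, Prg4, Rnf144b, Tusc5 and Anxa8 among 8159 tested genes with a mean of at least 10 CPM. The mean absolute difference from Pck1 in centred log2 CPM was 0.353 for Rasl12, 0.382 for Prg4, 0.422 for Rnf144b, 0.455 for Tusc5 and 0.467 for Anxa8. Tusc5, which encodes a protein of adipocyte glucose transporter traffic, stood at 118, 172 and 131 CPM in the controls and 369, 184 and 94.8 CPM in the knockdown samples. As for Pck1, RBMS1 knockdown replicate 1 was the highest and replicate 3 the lowest of the knockdown samples. This shared order largely follows from how the gene was chosen. None of the 5 was called, beside 1.22% of all tested genes. Of the 5, only Anxa8 was higher in every knockdown sample than in every control (adjusted p = 0.169 from edgeR), a pattern of 8.96% of tested genes.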

How the data were processed

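RNA was measured in 6 samples of 3T3-L1 adipocytes, grouped by their titles into 3 scrambled control and 3 RBMS1 knockdown. The authors prepared stranded libraries after depletion of ribosomal RNA, trimmed the reads with Trim Galore 0.6.7, ran STAR 2.7.10a against the GRCm38 genome, and quantified genes by Salmon 1.9.0, as their processing notes list. The authors deposited Salmon's estimated counts without normalizing them. The annotation release and the strand setting are not given in the sources used here. Values that were not whole (3.97% to 7.78% per sample, at a tolerance of 1e-06) were rounded.

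The test was edgeR's quasi-likelihood test (version 4.0.16, under R 4.3.3, with filterByExpr, TMM factors, glmQLFit with legacy = FALSE, glmQLFTest) on condition alone, with Benjamini-Hochberg adjustment over all 11440 tested genes. Of the 45706 genes, 26283 had no count in any sample. A gene was called at an adjusted p of 0.1 or less, and 53 of the 140 calls were under 0.05. DESeq2 1.42.0, on all genes with a count and with its own filtering, and limma-voom (limma 3.58.1) served as alternatives. The p-values weigh the difference between the groups against the spread between these samples. They do not cover variation between shRNAs, or between lines if each group came from a single line. Ratios (counts plus 0.5) and marker-relative levels (log2 of CPM plus 0.5) were tested with two-sided exact permutation tests over 20 arrangements. Positions and exon lengths are from GENCODE M21 (GRCm38), which held 11402 of the tested genes. There, Agpat2, Agpat3 and Gpd1 share 64, 16 and 384 exonic bases with a gene on the opposite strand, none of which was tested. Of the wider list, 7 genes were found under an older symbol by Ensembl ID. Figures were drawn with matplotlib 3.10.9.

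The 9 genes and the lists were chosen with earlier results of these data known. The text names the 9 genes, Rbms1, the called genes of the wider list with the largest and the smallest log2 fold change of each role, and the 5 genes whose centred log2 CPM profile was nearest to that of the gene with the largest fold change. Ppargc1a, Srebf1, Cebpa, the 6 genes of the wider list that were not tested and the markers were named outside that rule, after their values were seen. The scripts were tested on simulated data with changed genes of known size.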

Additional observations from a re-analysis of the deposited data

How the results depend on the processing

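The 140 calls over the tested genes became 430 with DESeq2, which tested 19394 genes with its own independent filtering in place of edgeR's filter, 268 with no filter on low counts, 39 with a replicate block, 73 with chromosome medians removed and 12 to 696 with 1 sample left out (12 without scrambled control replicate 2, 21 without 1, 32 without 3, 38 without RBMS1 knockdown replicate 2 and 696 without 1). Of the 9 genes, none was called with all samples in edgeR, 1 with DESeq2 and 0 to 4 with 1 sample left out, and their median (-0.32) was 0.053 with library size alone and -0.66 to -0.021 with 1 sample left out. Of the wider list, 1 was called, against 4 with the same DESeq2 run (Plpp1, Acsl1, Ppargc1a and Chpt1), 0 with library size alone, 0 with the replicate block (Plpp1 adjusted p = 0.129) and 0 to 6 with 1 sample left out. The median of the wider list (-0.077) was 0.32 with library size alone, a scaling that moved the median of all genes to 0.37, and -0.19 to 0.042 with 1 sample left out, turning positive without RBMS1 knockdown replicate 2.

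Among single genes, Gpam turned to -0.0067 with limma-voom, -0.039 with the replicate block, -0.066 with chromosome medians removed, -0.011 and -0.010 without scrambled control replicates 1 and 3, and ranged from -0.38 to 0.29 with 1 sample left out, the lowest without RBMS1 knockdown replicate 1. Agpat3 ranged from -0.12 to 0.34 with 1 sample left out, negative without the same replicate, and Lpin1 turned to 0.053 with library size alone. Agpat2, Lpin2, Dgat1, Dgat2, Pck1 and Gpd1 kept their direction under all 17 alternatives, but not their size. With library size alone they were at -0.14, 0.90, -0.23, -0.57, 1.88 and -0.55, in that order. The causes were not tested. The earlier and the robust quasi-likelihood estimates of edgeR (122 and 168 calls), chosen after seeing the data, called none of the 9 genes. Same-numbered samples had correlated deviations of -0.14, 0.078 and -0.028, and not every sample was closest to its own number, so the replicate numbers were not taken as pairs. With 3142695 counts scrambled control replicate 2 was the shallowest, and only 4 counts of Plpp2 were found there.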
